A study of Homo sapiens with 12 samples.

Results

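Replication-dependent histone genes encode the core histones H2A, H2B, H3 and H4 and the linker histone H1 that package newly copied DNA. They were taken as every entry of the count table with a symbol of the form H1-1 to H1-5, or H2AC, H2BC, H3C or H4C followed by a number. This gave 65 of 44659 listed genes, with 5 for H1, 16 for H2A, 17 for H2B, 13 for H3 and 14 for H4. No numbered copy of these symbols was listed. The genes were followed by RNA sequencing in A375, an established human melanoma line whose growth depends on a mutant BRAF kinase, in 4 groups of 3 libraries. Control cells (CC) were kept for 72 h in the solvent DMSO. Treated cells (TC) spent 72 h with 2 kinase inhibitors, vemurafenib against BRAF and cobimetinib against MEK, each at 500 nM, and were taken at the end of that time. Persister cells (PC) were treated in the same way and then kept for 2 days without drug, and recovered cells (RC) for 9 days without drug. Harvest dates are not given, nor whether CC and TC were harvested on the same day. PC and RC were taken 2 and 9 days after treatment ended, so for them the harvest day and the group cannot be told apart. The labels do not say whether the 3 replicates of a group came from separate cultures, and p-values measure only the spread between these samples.

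Most replication-dependent histone genes have no introns and lie in clusters, and many H2A and H2B genes stand head to head and share the DNA between their starts. Their mRNAs normally end just after a conserved stem-loop instead of in a poly(A) tail. The stem-loop is bound by SLBP, and the U7 particle, which holds LSM10 and LSM11, directs the cleavage behind it. Transcription normally rises in S phase through NPAT, a coactivator found at histone locus bodies in the nucleus. Some of these genes are also known to give longer, polyadenylated transcripts that run past the stem-loop.

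The stem-loops are shown because the way an mRNA ends decides which RNA preparations retain it. All 65 genes held one in the GENCODE v44 annotation of GRCh38, in 10 forms of the stem and loop. In the lines below the transcript strand is written 5′ to 3′, the 2 arms of the stem are in capitals, and the loop and the flanks are in lower case.
H2BC12, chr6:27146361-27146386, minus strand: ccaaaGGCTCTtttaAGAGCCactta
H1-2, chr6:26055740-26055764, minus strand: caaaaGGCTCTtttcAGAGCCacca
H2BC21, chr1:149886183-149886208, minus strand: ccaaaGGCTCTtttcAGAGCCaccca
H2AC6, chr6:26124664-26124689, plus strand: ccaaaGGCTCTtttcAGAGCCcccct
H4C8, chr6:26285126-26285151, minus strand: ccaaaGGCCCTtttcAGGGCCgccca
H2AC11, chr6:27133510-27133535, plus strand: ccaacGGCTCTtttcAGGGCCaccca
H2AC20, chr1:149887386-149887411, plus strand: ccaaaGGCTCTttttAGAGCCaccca
The form of H1-2, H2BC21 and H2AC6 was held by 38 genes, that of H4C8 by 9 and that of H2BC12 by 8. Those of H2AC11 and H2AC20 were held by 1 gene each. In H2BC21 the stem-loop lay inside the annotated exon, which ran on for 1729 bases behind it.

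Each library held 37773389 to 55567097 counted reads. The labels describe cytoplasmic RNA depleted of ribosomal RNA, whereas the study's methods for sequencing speak of total RNA. Levels are given as CPM, the reads of a gene scaled to a common library size, with TMM factors of 0.965 to 1.02. A CPM value is a share of a library, and fewer cells that express a gene cannot be told apart from less RNA of it per cell. A list of 10 melanoma and melanocyte markers, SOX10 and VIM among them, summed to 4062 to 4733 CPM in CC and 9148 to 12472 CPM in TC. By the test described below, 6 of the 10 rose and 2 fell in TC, where 33.2% and 34.7% of all genes tested did. The sum therefore does not give the direction of each marker. Markers of other cells were not all absent: 5 fibroblast genes summed to 28.5 to 38.3 CPM in CC and 8.02 to 9.51 in TC, mostly from LUM, 4 keratinocyte genes to 40.6 to 52.1 and 88.6 to 94.6, mostly from KRT10, and 3 endothelial genes to 3.36 to 5.23 and 1.73 to 2.33, mostly from VWF. In each of these lists of other cells 1 gene, COL3A1, KRT1 or CDH5, was at 0 in all 12 libraries, while the other listed genes had reads. The leukocyte gene PTPRC was at 0.466 to 0.655 CPM in CC and at most 0.0746 in TC. KRT14 rose from at most 0.0452 CPM in CC to 0.261 to 0.544 in TC and 1.93 to 2.64 in PC. The part of such cells in the histone values was not tested. Of the 65 histone genes, 59 had at least 1 read and 6 (H2AC1, H2BC1, H3C11, H4C6, H4C7 and H4C13) had none anywhere. A gene with at most 3 reads in each library of a group is called at the floor in that group, which corresponds to at most 0.0534 to 0.0785 CPM. There were 27 such genes in the CC libraries, 23 in the TC libraries, 21 in the PC libraries and 18 in the RC libraries, and 14 were at the floor in every group.

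Histone reads made up a far larger part of the libraries during treatment and 2 days after it than in control cells. Summed over the 65 genes, CC libraries held 27.7, 33.5 and 22.6 CPM, TC libraries 495, 491 and 495 CPM, PC libraries 532, 533 and 531 CPM, and RC libraries 45.4, 41.3 and 41.0 CPM. TC and PC lay far above CC and RC without overlap, and the RC libraries all lay above the CC libraries. The mean sum was 27.9 ± 5.46 CPM (SD, n = 3) in CC, 494 ± 2.15 in TC, 532 ± 1.16 in PC and 42.6 ± 2.44 in RC. Against CC this was a ratio of 17.7 in TC, 19.1 in PC and 1.52 in RC, and PC stood to TC as 1.08 and RC to PC as 0.0800.

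**Figure D1:**
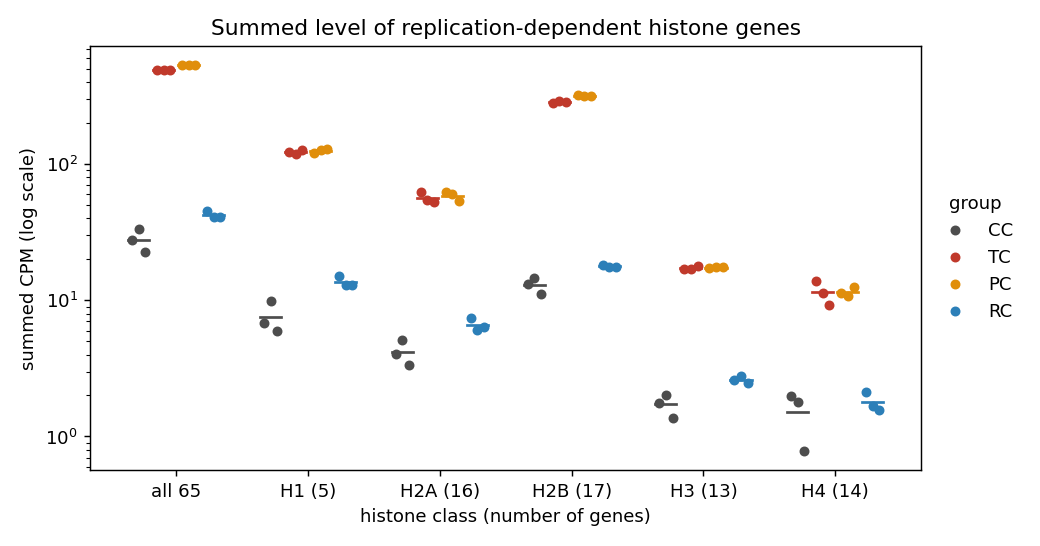
Summed CPM on a log axis, for all 65 histone genes and for each class, with 1 point per library and a short line at the mean of the 3 libraries of a group. In all 5 classes the TC and PC libraries lie above the CC and RC libraries, as for H2B with 11.1 to 14.6 CPM in CC against 279 to 289 in TC.

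The 5 classes did not move by the same ratio. The H2B sum went from 13.1, 14.6 and 11.1 CPM in CC to 279, 289 and 288 in TC, a ratio of 22.03, and to a ratio of 24.6 in PC. For H1 the ratio was 16.3 in TC and 16.7 in PC, and for H2A it was 13.6 and 14.1. The H3 sum went from 1.78, 2.03 and 1.38 CPM in CC to 17.1, 17.1 and 17.8 in TC, a ratio of 10.0, with 10.1 in PC. H4 had the smallest ratios of the classes, 7.52 in TC and 7.58 in PC, on sums of 2.00, 1.78 and 0.783 CPM in CC and 13.8, 11.3 and 9.27 CPM in TC. In RC the ratios to CC were between 1.17 for H4 and 1.81 for H1. Differences between classes were not tested.

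The sums were carried by few genes. H2BC12, H1-2, H2BC21, H2AC6 and H2BC4 held 68.4% to 73.1% of the histone CPM in CC libraries, 83.9% to 84.4% in TC, 83.8% to 84.4% in PC and 65.2% to 67.7% in RC. The TC libraries lay above all CC libraries in this share. These 5 genes were chosen by their mean CPM over all 12 libraries, to which TC and PC gave most. The same 5 also had the highest mean CPM in CC. Without these 5 genes, the sum over the other 60 members stood at 9.27 times its CC level in TC, 9.995 times in PC and 1.69 times in RC.

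Single genes were tested where the mean scaled count over the 12 libraries was at least 10, which 32 of the 65 histone genes and 15916 genes in all reached. A gene low in CC and high in TC could reach this mean through TC alone, so the counts below describe the tested genes and not the family. In TC against CC, 25 of the 32 rose and 2 fell (adjusted p under 0.05 over all genes tested, edgeR's quasi-likelihood test), where 33.2% of all genes tested rose and 34.7% fell. The 2 that fell were H2AC20 and H2BC9, and the 5 that passed in neither direction were H4C9, H4C11, H1-4, H3C13 and H3C2. The median log2 fold change of the 32 was 3.26, against -0.02 over all genes tested. A test against a 1.5-fold change called 22 higher and 2 lower, with a background of 16.1% and 19.3%. Of the tested genes only H2BC7 was at the floor in CC, and the median is the same with that gene at its bound.

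In PC against CC, 27 of the 32 rose and 1, H2AC20, fell, with a background of 33.2% and 35.9%. Beyond 1.5-fold 25 were higher and 1 lower, with a background of 17.2% and 19.9%. In RC against CC, 8 rose and 2 fell, with a background of 18.2% and 19.1%, and the median difference was 0.71 on the log2 scale. All 3 of these comparisons share the CC libraries. From TC to PC, 1 gene rose and none fell, where 12.2% and 12.5% of all genes tested did. At an unadjusted p under 0.05 edgeR gave 4 higher and 0 lower, and DESeq2 called 1 higher and 0 lower. None passed beyond 1.5-fold, where 2.33% were higher and 1.15% lower. From PC to RC, 25 fell and 2 rose, with a background of 34.2% and 35.7%. Beyond 1.5-fold 22 were lower and 2 higher, with a background of 18.5% and 20.2%. Low genes decided the edge of these counts. In TC, H2AC12 lost its call without CC replicate 2 or 3 or TC replicate 3 (adjusted p = 0.056 to 0.13) and H2BC17 without CC replicate 1 or 3 or TC replicate 2 or 3 (adjusted p = 0.056 to 0.15), and in PC H2BC13 without CC replicate 1 or 3 or PC replicate 2 or 3 (adjusted p = 0.051 to 0.11). By class, 11 of 12 tested H2B genes, 7 of 8 H2A genes, 3 of 5 H3 genes, 3 of 5 H4 genes and 1 of 2 H1 genes rose in TC, where 33.2% of all genes tested did. These counts include H2BC17, H2AC12 and H4C15, whose calls were lost without some single library.

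The ranges of CPM gave a count that covers every member. In 26 of the 32 tested genes each TC library lay above each CC library, where this held for 33.3% of all genes tested, and in 2, H2AC20 and H2BC9, each lay below, where it held for 34.7%. Among the 27 untested histone genes with a read there were 9 above, against 5.91% of all untested genes with a read, and 1, H2AC14, below, against 8.26%. Both sets hold genes with too few reads to lie above or below in every library. They were not matched in depth, so these shares are only a rough comparison.

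H2B pairs with H2A in the nucleosome, and its genes gave the largest part of the histone reads in each of the 12 libraries. H2BC12 (chr6:27146361-27146855, 1 exon) was at 6.74, 6.78 and 6.48 CPM in the CC libraries, 140, 153 and 155 in the TC libraries, 161, 165 and 168 in the PC libraries and 10.8, 10.8 and 9.47 in the RC libraries. No group overlapped another. It rose by 4.49 ± 0.07 (SE) on the log2 scale in TC (adjusted p = 2.4e-12), by 4.63 ± 0.08 in PC (adjusted p = 1.8e-12) and by 0.63 ± 0.07 in RC (adjusted p = 6.6e-05). Per kilobase of exon annotated by GENCODE, it had the highest mean level among the named genes, with 302 CPM per kb in TC and 13.5 in CC. H1-2 followed with 168 CPM per kb in TC, and H2BC21, H2BC5 and H2AC6 lay between 26.7 and 30.5. The length is the union of exons over all GENCODE transcripts, 495 bases for H2BC12, 2224 for H2BC21 and 1668 for H2AC6. These lengths set part of the gaps. The reads were counted on the NCBI annotation, and RefSeq lists 3 transcripts for H2BC12. The lengths over which reads were counted may therefore differ from these, and with them the order and the gaps.

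H2BC21 (chr1:149884459-149886682) was at 3.16, 2.94 and 1.48 CPM in the CC libraries, 71.1, 65.7 and 66.6 in the TC libraries, 87.4, 81.7 and 78.7 in the PC libraries and 1.55, 1.87 and 1.99 in the RC libraries. TC and PC lay above CC, and RC lay within the range of CC. Its log2 fold change was 4.76 ± 0.20 in TC (adjusted p = 1.5e-09), 5.04 ± 0.20 in PC (adjusted p = 1e-09) and -0.47 ± 0.22 in RC (adjusted p = 0.11).

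H2BC4 had 0.740, 1.42 and 0.846 CPM in the CC libraries, 31.7, 32.2 and 29.1 in the TC libraries, 32.5, 30.9 and 31.5 in the PC libraries and 1.43, 1.23 and 1.53 in the RC libraries. H2BC5 had 0.691, 0.971 and 0.656 CPM in the CC libraries, 22.4, 24.5 and 22.8 in the TC libraries, 23.8, 23.1 and 24.8 in the PC libraries and 1.16, 0.801 and 0.851 in the RC libraries. Both rose in TC and PC, by 4.90 to 4.97 on the log2 scale, with RC overlapping CC and no call there. H2BC8 had 0.123, 0.226 and 0.106 CPM in the CC libraries, 5.05, 5.26 and 5.82 in the TC libraries, 4.81, 4.87 and 4.02 in the PC libraries and 0.468, 0.231 and 0.359 in the RC libraries. It was higher than CC in every library of the other groups, by 5.12 ± 0.31 on the log2 scale in TC, 4.89 ± 0.30 in PC and 1.19 ± 0.32 in RC (adjusted p = 0.012).

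Among the weaker H2B genes, H2BC11, H2BC15 and H2BC18 rose by 2.23 to 3.77 on the log2 scale in TC. For H2BC11 the rise of 3.24 in TC was 4.30 without CC replicate 2, and that of 3.48 in PC was 4.54. H2BC7 had 0 reads in 2 CC libraries and 1 read in the other, against 0.664 to 1.11 CPM in TC, so that TC was at least 12.6-fold and PC at least 13.3-fold above the floor of 3 reads per library. H2BC9 went the other way, with 0.494, 0.926 and 0.550 CPM in the CC libraries, 0.259, 0.230 and 0.280 in the TC libraries, 0.183, 0.521 and 0.347 in the PC libraries and 0.985, 0.872 and 1.32 in the RC libraries. All TC libraries lay below all CC libraries, while PC and RC each overlapped CC. It fell by 1.34 on the log2 scale in TC (SE 0.39, adjusted p = 0.0092), and its fold change was -0.89 ± 0.38 in PC (adjusted p = 0.056). Without CC replicate 1 or PC replicate 2 it was called in PC as well, at -1.05 (adjusted p = 0.042) and -1.29 (adjusted p = 0.018).

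H2A genes rose with 1 exception among those tested. H2AC6 (chr6:26124145-26139116) had 1.80, 2.08 and 2.09 CPM in the CC libraries, 50.6, 42.0 and 40.9 in the TC libraries, 47.9, 44.1 and 39.1 in the PC libraries and 1.75, 1.39 and 1.23 in the RC libraries. TC and PC lay above CC, and all RC libraries lay below all CC libraries. Its log2 fold change was 4.48 ± 0.14 in TC (adjusted p = 2e-10), 4.45 ± 0.14 in PC and -0.47 ± 0.15 in RC (adjusted p = 0.031). H2AC13 rose by 4.82 in TC, and H2AC11, H2AC8, H2AC17 and H2AC15 by 2.54 to 3.28. Without CC replicate 2 the rise in TC was 3.66 for H2AC8 and 3.59 for H2AC17 (3.74 and 4.25 in PC), without CC replicate 3 it was 2.15 for H2AC17 (2.82 in PC), and without CC replicate 1 it was 3.42 for H2AC15 (4.00 in PC). H2AC11 was at 0.296, 0.474 and 0.233 CPM in CC and 0.960, 0.997 and 0.832 in RC without overlap, a rise of 1.47 on the log2 scale in RC (adjusted p = 0.0012).

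H2AC20 (chr1:149886918-149887411) had 0.864, 1.20 and 0.550 CPM in the CC libraries, 0.311, 0.0511 and 0.168 in the TC libraries, 0.235, 0.413 and 0.231 in the PC libraries and 2.41, 1.94 and 1.85 in the RC libraries. Both TC and PC lay below CC, and RC lay above it, with no overlap in any of these. It fell by 2.29 on the log2 scale in TC (SE 0.48, adjusted p = 0.0011) and by 1.55 in PC (SE 0.45, adjusted p = 0.0091), and was higher by 1.25 ± 0.41 in RC (adjusted p = 0.033). Without TC replicate 1 the value in TC was -2.89. From PC to RC it rose by 2.80 ± 0.45 (adjusted p = 0.00014). The untested H2AC14 had the same order of groups, with 3, 5 and 8 reads in CC, none in TC and 8, 14 and 14 in RC, which put TC at least 1.69-fold lower than CC against the floor.

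**Figure D2:**
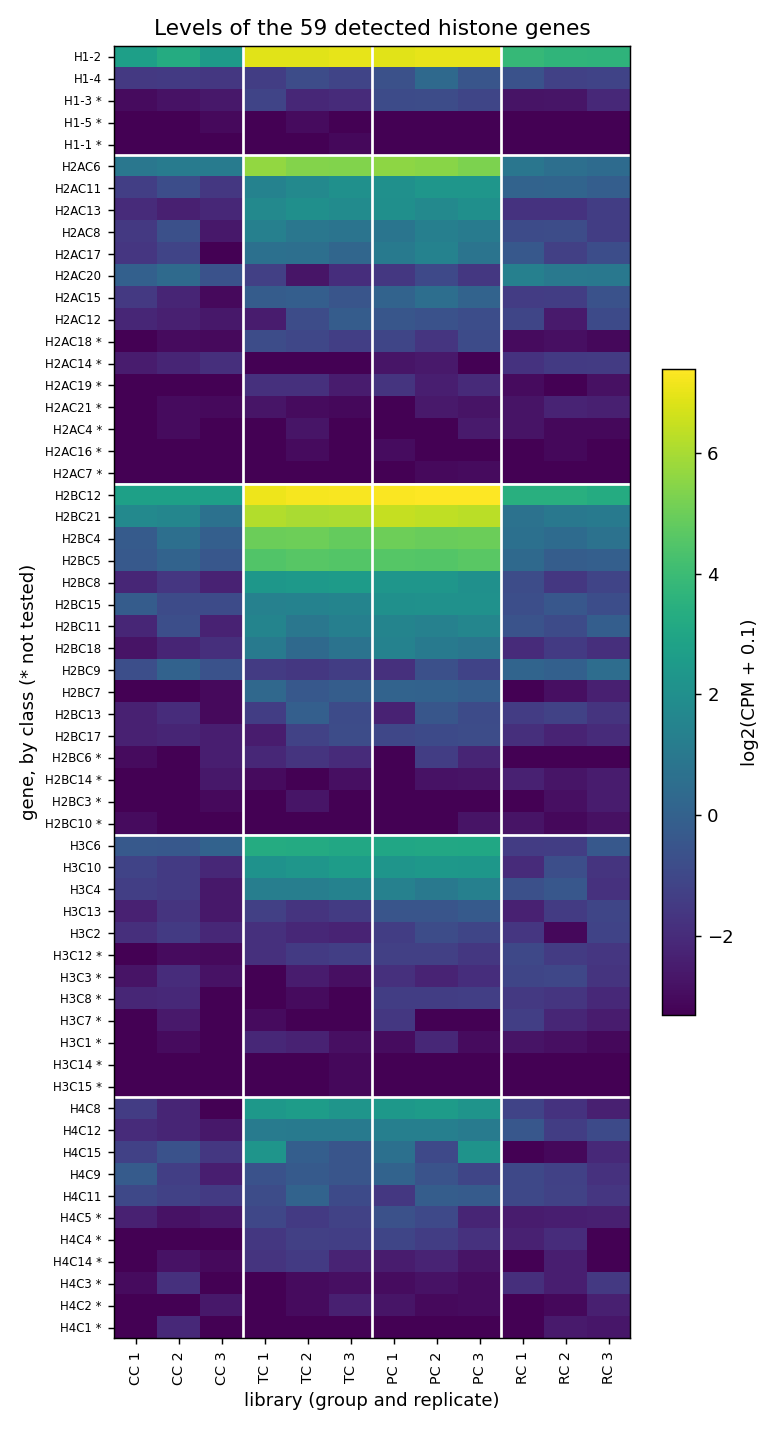
Heat map of the 59 histone genes with at least 1 read, in rows by class and mean level, against the 12 libraries in columns by group, coloured by log2(CPM + 0.1). An asterisk marks the 27 genes that were not tested. TC and PC columns are brighter than CC and RC columns for most of the upper genes of each class, with H2AC20 and H2BC9 the other way, and most of the lower rows stay dark throughout.

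H1 closes the nucleosome as linker histone, and nearly all H1 reads came from H1-2 (chr6:26055740-26056470). It had 6.51, 9.67 and 5.59 CPM in the CC libraries, 122, 119 and 127 in the TC libraries, 120, 126 and 128 in the PC libraries and 14.5, 12.7 and 12.5 in the RC libraries. Neither TC, PC nor RC overlapped CC. It rose by 4.08 ± 0.16 on the log2 scale in TC (adjusted p = 7.9e-10), by 4.10 ± 0.16 in PC and by 0.86 ± 0.15 in RC (adjusted p = 0.001). H1-4 was at 0.233 to 0.248 CPM in CC and was not called in TC, but rose by 1.64 in PC (adjusted p = 0.0022). H1-3 was at the floor in CC, and TC was at least 3.12-fold and PC at least 6.19-fold above it.

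H3 and H4 form the core tetramer of the nucleosome, and most of their genes were low. H3C6 had 0.691, 0.678 and 0.931 CPM in the CC libraries, 9.64, 9.15 and 8.45 in the TC libraries, 8.004, 8.58 and 8.26 in the PC libraries and 0.271, 0.285 and 0.681 in the RC libraries. It rose by 3.56 ± 0.28 on the log2 scale in TC and fell by 0.88 in RC (SE 0.30, adjusted p = 0.035), although RC and CC overlapped there. H3C10 had 0.345, 0.248 and 0.127 CPM in the CC libraries, 4.35, 4.83 and 6.04 in the TC libraries, 4.76, 5.08 and 5.06 in the PC libraries and 0.148, 0.498 and 0.208 in the RC libraries, a rise of 4.40 ± 0.41 in TC and no call in RC. H3C4 rose by 3.57 in TC and 3.49 in PC. The low H3C13 was called only in PC among the 3 comparisons with CC, at 0.602 to 0.717 CPM against 0.0635 to 0.203 in CC, a rise of 2.38 on the log2 scale. Without CC replicate 2 it was called in TC too, at 1.66 (adjusted p = 0.028), and in RC at 1.62 (adjusted p = 0.048), and without RC replicate 1 in RC at 1.39 (adjusted p = 0.047).

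H4C8 had 0.271, 0.113 and 0 CPM in the CC libraries, 5.21, 5.88 and 4.70 in the TC libraries, 5.18, 5.78 and 4.56 in the PC libraries and 0.345, 0.196 and 0.0946 in the RC libraries. It rose by 5.38 ± 0.63 in TC and 5.36 ± 0.63 in PC, with RC overlapping CC. These sizes rest on 11, 5 and 0 reads in CC, and were 6.51 and 6.49 without CC replicate 1 and 4.78 and 4.76 without CC replicate 3. H4C12 had 0.148, 0.113 and 0.0635 CPM in CC and 0.640, 0.285 and 0.435 in RC, and rose by 4.23 on the log2 scale in TC, 4.37 in PC and 2.04 in RC (adjusted p = 0.00092). H4C9 overlapped CC in all groups and was not called in TC (log2 fold change 0.76, adjusted p = 0.27). Without CC replicate 1 it was 1.72 in TC (adjusted p = 0.022) and 1.74 in PC (adjusted p = 0.021).

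H4C15 rested on single libraries. It had 179, 32 and 33 reads in the TC libraries, 56, 19 and 191 in the PC libraries and 0, 1 and 7 in the RC libraries. In each of TC and PC 1 library stood several-fold above the others. It rose by 2.45 in TC (adjusted p = 0.040) and 2.51 in PC (adjusted p = 0.035). Without TC replicate 1 the value was 0.97 (adjusted p = 0.36), and without PC replicate 3 it was 1.35 (adjusted p = 0.24). Leaving out any 1 CC library gave 2.21 to 2.92 over both comparisons (adjusted p = 0.051 to 0.11). All 100-base windows of its GENCODE transcripts also occur in H4C14, while the table gives 566 reads to H4C15 and 42 to H4C14 over the 12 libraries. How reads that fit both were assigned is not given, so the split between the copies is uncertain. The reads were counted on the NCBI annotation, and RefSeq lists 9 transcripts for H4C15 and 1 for H4C14. The part of this difference in the split was not tested.

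**Figure D3:**
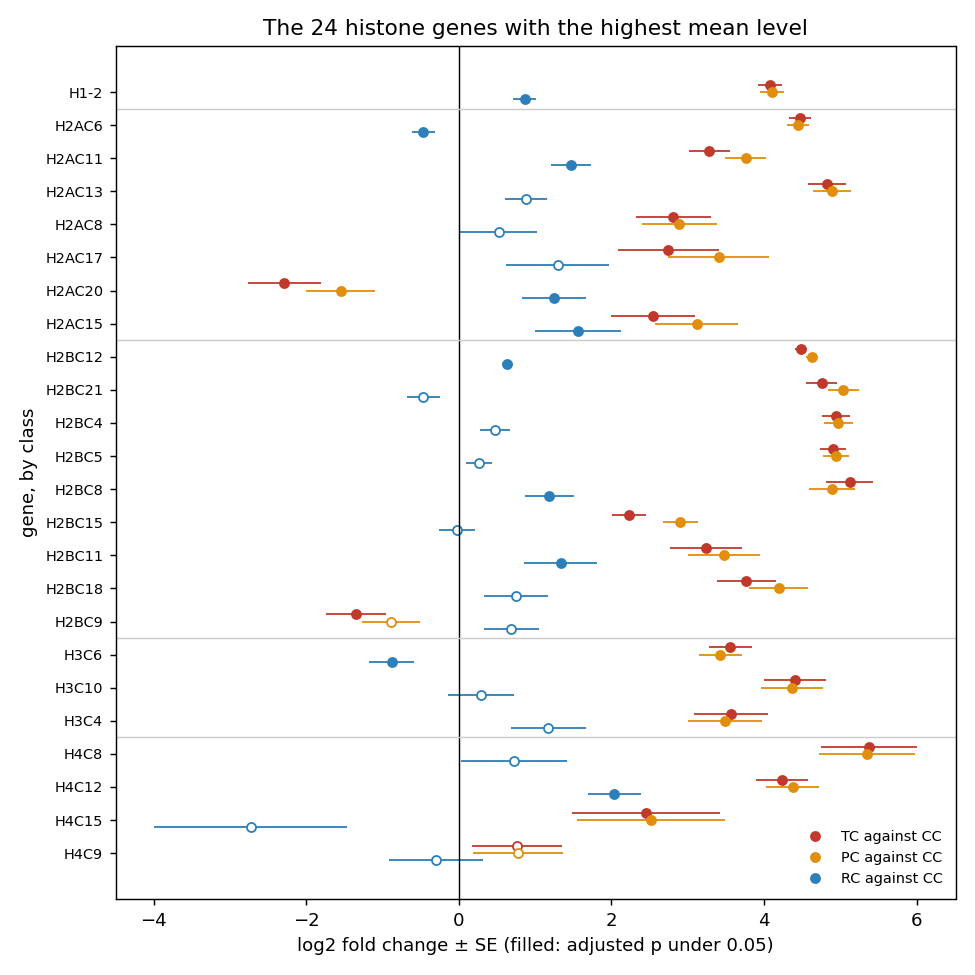
Fitted log2 fold change against CC, with SE as bars, of the 24 histone genes with the highest mean CPM, by class, with TC, PC and RC in colours and filled points for an adjusted p under 0.05. In TC and in PC 21 of the 24 were called higher, where 33.2% of all genes tested were in each comparison. H2AC20 and H2BC9 lie below 0 in both. The mean CPM is over all 12 libraries, so genes high in TC or PC are more likely to be among the 24.

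The change from TC to PC was small beside the one from CC. Over the 32 tested genes the median difference was 0.11 on the log2 scale, and H2BC15 alone was called, by 0.67 ± 0.21 (adjusted p = 0.035). Leaving out any 1 of the TC or PC libraries gave 0.65 to 0.71 (adjusted p = 0.063 to 0.094). It was at 2.49, 2.58 and 2.72 CPM in TC and 4.08, 4.17 and 4.19 in PC, with no overlap. From PC to RC the median was -2.35, and H2BC12 fell by 3.99. H2AC20 and H2BC9 were the 2 that rose.

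By 9 days without drug the calls against CC were fewer and of both signs. H2BC12, H1-2, H2BC8, H2AC11, H2BC11, H4C12, H2AC20 and H2AC15 rose, and H2AC6 and H3C6 fell. Only H2AC11 and H4C12 passed the test against a 1.5-fold change, where 1.35% of all genes tested were higher and 2.52% lower. H2BC12, H1-2, H2AC11 and H4C12 were still called when any 1 library was left out, and the other 6 were not. H2BC8 stood at 0.95 without RC replicate 1 (adjusted p = 0.058). H2AC20 stood at 1.00 to 1.32 without CC replicate 1 or 3 or any RC replicate (adjusted p = 0.056 to 0.098), H2AC6 at -0.44 to -0.35 without replicate 2 or 3 of CC or of RC (adjusted p = 0.071 to 0.13), and H3C6 at -0.95 to -0.66 without CC replicate 1 or 3 or RC replicate 1 or 2 (adjusted p = 0.054 to 0.14). H2BC11 lost its call without any 1 library but CC replicate 2 and RC replicate 2 (adjusted p = 0.051 to 0.15), and H2AC15 without any but CC replicate 1 (adjusted p = 0.054 to 0.17). In the other direction, H2BC21 was called lower without CC replicate 3, at -0.74 (adjusted p = 0.00042), and 7 other genes were called higher without 1 library. They were H2BC4 (0.81, adjusted p = 0.00074), H2AC8 (1.37, adjusted p = 0.042), H2AC17 (2.14, adjusted p = 0.048) and H3C13 without CC replicate 2, H3C4 without RC replicate 3 (1.55, adjusted p = 0.019), H2AC12 without RC replicate 2 (2.11, adjusted p = 0.049), and H2BC7 (adjusted p = 0.044) and again H3C13 without RC replicate 1. Without CC replicate 2 H2BC11 stood at 2.40, and without CC replicate 1 H2AC15 stood at 2.44.

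Among the 65 genes 11 H2A and H2B pairs were annotated head to head, the closest starts 194 bases apart. In 8 pairs both genes were tested. In 7 of these both genes rose in TC and in PC, and 1 pair moved in opposite directions, H2AC20 falling and H2BC21 rising in both. Their starts are 236 bases apart. Of all tested H2A genes 7 of 8 rose in TC and in PC, and of all tested H2B genes 11 of 12. Over all genes tested 33.2% rose in each comparison. The count of pairs thus follows from the 2 classes and does not set the pairs apart. In RC 1 pair, H2AC11 and H2BC11, was called higher in both genes. Partners reached very different totals, as for H2AC7 with 2 reads over the 12 libraries beside H2BC7 with 236. Similarly, the mean of H2AC12 was 0.434 CPM in TC beside 149 CPM for its partner H2BC12.

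**Figure D4:**
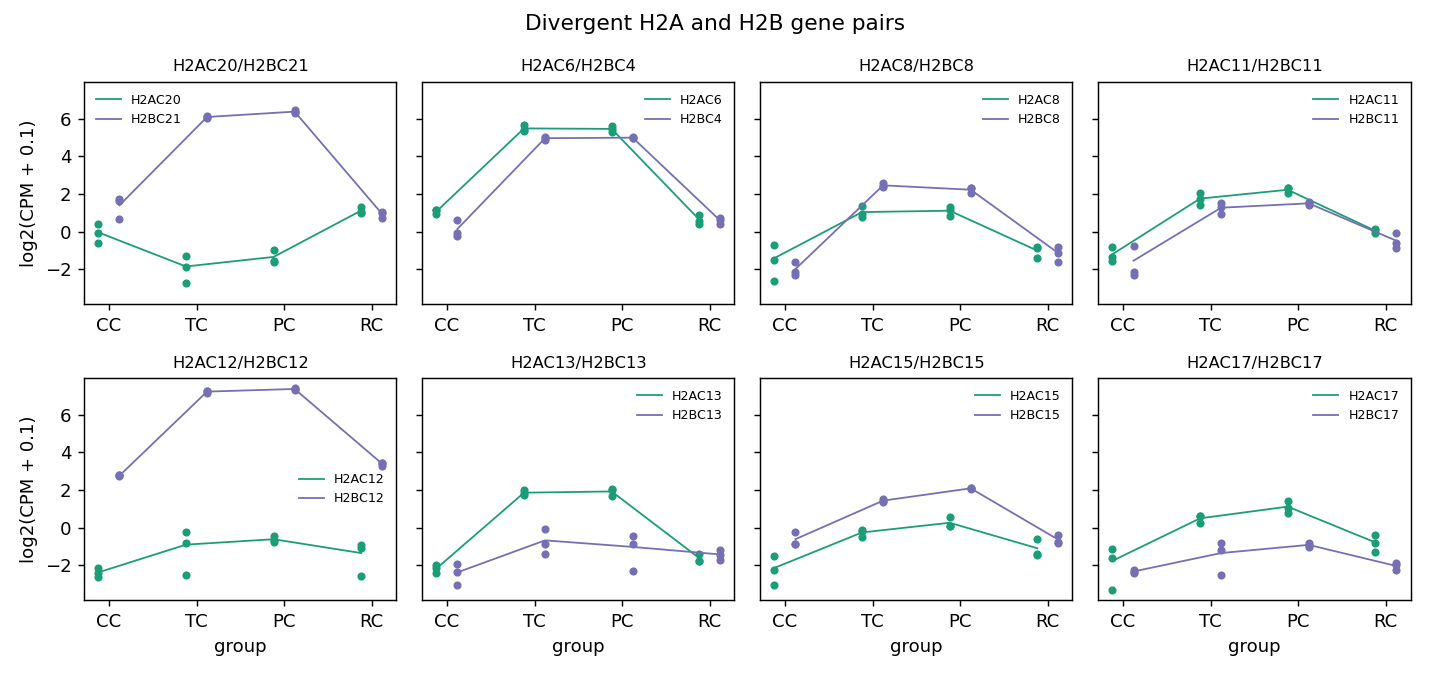
Levels of both genes of the 8 divergent pairs with both genes tested, 1 panel per pair, as log2(CPM + 0.1) in the 4 groups, with 1 point per library and lines through the group means. In 7 pairs both lines rise from CC to TC, while for H2AC20 with H2BC21 the H2A line falls and the H2B line rises.

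Promoters are shown for the 3 genes with the highest mean CPM, because H2BC12 and H2BC21 have divergent partners and H1-2 has none. The sequences are those of RefSeq on GRCh38.p14, from 250 bases before the start to 50 bases after it, on the strand of the gene and 5′ to 3′. Capitals mark 3 motifs on either strand, which may touch or overlap: the TATA box TATAAA, the box CCAAT and the octamer ATTTGCAT. The octamer, long known from H2B promoters, was added to the search after the values of these genes had been seen.
H2BC12, chr6:27146809-27147108, minus strand: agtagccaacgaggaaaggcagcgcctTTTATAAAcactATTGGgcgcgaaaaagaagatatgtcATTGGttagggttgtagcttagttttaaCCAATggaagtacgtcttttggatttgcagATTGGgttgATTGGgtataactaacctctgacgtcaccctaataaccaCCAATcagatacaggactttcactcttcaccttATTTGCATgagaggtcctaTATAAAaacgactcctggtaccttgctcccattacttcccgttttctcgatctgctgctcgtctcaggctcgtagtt
H2BC21, chr1:149886633-149886932, minus strand: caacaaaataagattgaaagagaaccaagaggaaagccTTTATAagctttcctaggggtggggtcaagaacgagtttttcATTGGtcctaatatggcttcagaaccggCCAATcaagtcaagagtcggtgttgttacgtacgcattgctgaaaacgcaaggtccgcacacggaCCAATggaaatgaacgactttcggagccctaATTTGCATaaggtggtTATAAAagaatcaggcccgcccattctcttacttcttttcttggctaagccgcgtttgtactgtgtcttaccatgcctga
H1-2, chr6:26056421-26056720, minus strand: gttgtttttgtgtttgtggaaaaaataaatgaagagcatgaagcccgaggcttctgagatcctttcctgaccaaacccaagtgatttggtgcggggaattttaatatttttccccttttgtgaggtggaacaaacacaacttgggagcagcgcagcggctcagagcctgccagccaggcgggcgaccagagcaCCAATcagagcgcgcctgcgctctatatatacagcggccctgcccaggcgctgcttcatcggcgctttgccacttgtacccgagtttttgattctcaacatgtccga
The start of H2AC20, on the other strand, lies at base 15 of the H2BC21 window, so that this sequence is the upstream DNA of both the gene that rose and the one that fell.

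Promoter sequences were matched for 60 of the 65 genes. Those of H3C6 and H3C4 start 957 and 2007 bases upstream of the stem-loop transcript and were left out, which left 58. TATAAA was found in 40 (69.0%) of them, against 11.95% of 27305 promoters of the same length. CCAAT was found in 49 (84.5%), against 35.7%, including all of those of H1, H2A, H2B and H3 but 3 of 12 for H4. ATTTGCAT was found in 25 (43.1%), against 1.80%, with 11 of 15 for H2A, 14 of 17 for H2B and 0 of the 26 counted for H1, H3 and H4. Divergent partners share much of their window, so their matches are counted for both. Of the 22 counted genes that rose in TC, 15 held TATAAA, 19 CCAAT and 12 ATTTGCAT, and both genes that fell held CCAAT and ATTTGCAT. A match is a description of letters and not of a factor bound there.

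The genes also differed in their annotated transcripts. In 16 genes either a GENCODE transcript ran at least 50 bases past the stem-loop or RefSeq listed more than 1 transcript. Of these 13 were tested, 13 rose and none fell in TC, with a median of 4.40 on the log2 scale in TC, 4.37 in PC and 0.29 in RC. Of the other 49 genes 19 were tested, 12 rose and 2 fell in TC, with medians of 2.48, 2.56 and 1.04. Over all genes tested 33.2% rose and 34.7% fell in TC. A gene could reach the mean count for testing through TC alone, and 13 of 16 genes reached it in the first set but 19 of 49 in the second. The part of this selection in the gap between the counts and medians was not tested. The first set had sums of 16.01, 17.1 and 13.7 CPM in CC and 349, 347 and 343 CPM in TC, a ratio of 22.2, and the second 11.7, 16.4 and 8.82 CPM and then 145, 144 and 152 CPM, a ratio of 11.97. In RC the order was the other way round, with ratios of 1.20 and 1.94. Split by the GENCODE rule alone, the ratios were 22.2 and 15.6 in TC and 0.905 and 1.81 in RC. Split by the RefSeq rule alone, they were 22.1 and 15.3 in TC and 1.40 and 1.60 in RC. H2BC12 and H3C4 joined the first set by their RefSeq transcripts only. H2BC12, H2BC4, H2BC5, H2AC6, H2BC21, H3C6 and H4C8 belong to the first set and H1-2, H2AC11, H2AC20 and H2BC9 to the second. A count per gene does not tell whether a read ended at the stem-loop or ran past it, and whether longer transcripts changed was not tested.

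**Figure D5:**
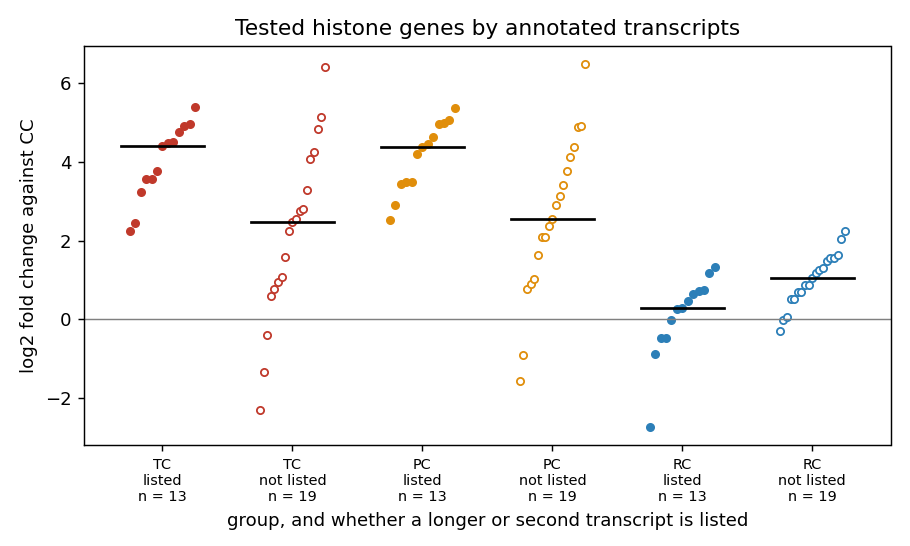
Fitted log2 fold change against CC of each tested histone gene as a point, in TC, PC and RC, split by whether annotation lists a transcript past the stem-loop or more than 1 transcript (filled, 13 genes) or neither (open, 19 genes), with a black line at each median. The medians are 4.40 and 2.48 in TC and 0.29 and 1.04 in RC, and the points of the sets overlap.

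Near-identical copies and overlapping genes limit some values. In 10 genes over 50% of the 100-base windows of the stem-loop transcript occur in another member, 4 of them tested. Among the 23 tested genes that share no such window, 19 rose and 1 fell in TC. H2AC18 and H2AC19, H3C14 and H3C15, and H4C14 and H4C15 are almost the same sequence, and how reads with several alignments were counted is not given in the sources used here. Exons of 6 tested genes overlap those of another gene, among them H2AC6, H2BC4, H4C8 and H3C4, and whether the counting used strand is not given either.

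Of the 33 untested genes 27 had a read, and no one of them had more than 114 reads over the 12 libraries. Against a CC group at the floor of 3 reads per library, TC was at least 5.59-fold higher for H2AC18, 4.08-fold for H4C4, 3.58-fold for H3C12, 2.80-fold for H4C14 and 2.12-fold for H2AC19. For PC the same bounds were 4.98, 4.06, 4.14, 1.14 and 2.12. H3C12 was also above the floor in RC, at least 4.33-fold. H3C8 was at the floor in TC while PC was at least 4.14-fold above it.

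The factors that make, process and degrade histone mRNA did not rise with the histone genes as a group. A list for histone mRNA processing held 21 tested genes, among them factors of its decay such as UPF1 and LSM1. Of the 21 genes 3, LSM1 among them, rose and 12 fell in TC (median -0.42). In PC 3 rose and 11 fell, and in RC 14 rose and 2 fell. All genes tested gave 33.2% and 34.7% for TC, 33.2% and 35.9% for PC, and 18.2% and 19.1% for RC. The same shares apply to the lists that follow. SLBP had 67.7, 78.9 and 83.6 CPM in the CC libraries, 50.8, 49.5 and 54.5 in the TC libraries, 57.8, 54.2 and 58.1 in the PC libraries and 103, 104 and 98.3 in the RC libraries. It was lower than CC in all TC and PC libraries and higher in all RC libraries, with log2 fold changes of -0.57 ± 0.08 (adjusted p = 3e-05), -0.44 (adjusted p = 0.00026) and 0.40 (adjusted p = 0.0016). Of the U7 particle, LSM10 rose by 0.75 ± 0.07 in TC (adjusted p = 6.8e-07) and LSM11 fell by 0.98 (SE 0.08, adjusted p = 6.1e-07).

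Of 8 tested genes for histone gene transcription none rose and 4 fell in TC, while at an unadjusted p under 0.05 edgeR gave 1 higher, as did DESeq2 after adjustment. NPAT fell by 0.65 in TC (SE 0.18, adjusted p = 0.0074) and by 0.80 in PC, and had a log2 fold change of 0.11 in RC (adjusted p = 0.66). HINFP, which binds H4 promoters, had 0.28 in TC (adjusted p = 0.052) and was lower in RC, at -0.34 (adjusted p = 0.039). CASP8AP2, a partner of NPAT, was low, and a numbered copy of its symbol is listed apart. It had -1.26 in TC (adjusted p = 0.18). Of 19 tested histone chaperones, which carry histones to and from DNA, 2 rose and 11 fell in TC.

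Genes of DNA replication moved opposite to the histone genes in TC. Of 43 tested genes of an S phase list 39 fell and none rose in TC (median -1.80), 38 fell and 1 rose in PC (median -1.28), and 37 rose and none fell in RC (median 0.62). For the rises in TC and falls in RC, edgeR at an unadjusted p under 0.05 gave 0 and 1, and DESeq2 after adjustment 0 and 1. Of 54 tested genes of a G2/M list 53 fell in TC, 52 fell in PC and 52 rose in RC. Of 11 tested genes for replacement histones, which are made largely apart from S phase and mostly from polyadenylated mRNAs, 2 rose and 8 fell in TC, and 4 rose and 6 fell in PC. H3-3A and H3-3B rose by 0.58 and 0.61 in TC, while the centromere histone CENPA fell by 3.63.

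RNAs known for forms without a poly(A) tail were listed as a point of comparison for libraries made without poly(A) selection. Of 18 such RNAs 3 were tested and 8 were at 0 in all 12 libraries. RN7SK had 0.321, 0.407 and 0.339 CPM in CC and 0.751, 0.511 and 1.16 CPM in TC, with no overlap, a rise of 1.19 ± 0.42 on the log2 scale in TC (adjusted p = 0.023) and of 1.38 in PC (adjusted p = 0.011). NEAT1, whose short form is polyadenylated, fell by 2.22 in TC, and MALAT1, at 0.487 to 0.858 CPM in CC, was not called. The labels describe cytoplasmic RNA, and how much of these RNAs such a preparation keeps is not known here. Their levels therefore do not measure how well RNAs without a poly(A) tail were captured. The part of RNA selection in the histone values was not tested.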

How the data were processed

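Cytoplasmic RNA of A375 cells (per the labels) was sequenced as paired reads after depletion of ribosomal RNA, in 12 libraries of 4 groups. The deposited table holds raw read counts per gene: the authors trimmed reads with fastp 0.20.1, aligned them to GRCh38.p13 with HISAT2 2.2.1 and counted them on exons with HTSeq 0.13.5 and the NCBI annotation. Strand setting and treatment of reads with several alignments are not given in the sources used here. Counts were fitted in R 4.3.3 with edgeR 4.0.16 (quasi-likelihood test, TMM, 1 model over 12 libraries with a mean per group, 8 residual degrees of freedom). The common biological coefficient of variation was 0.182. Genes with a mean scaled count of at least 10 were tested (15916 of 44659), p-values were adjusted by Benjamini-Hochberg over all of them, and 0.05 was the threshold. glmTreat tested against a 1.5-fold change. The test was first checked on simulated data. CPM were reads over the TMM-scaled library size. With 37773389 to 55567097 reads per library, a floor of 3 reads per library was set, which covers counting error only. The alternatives were DESeq2 1.42.0, library totals in place of TMM, the count filter of the study (summed count of at least 2), a fit to the 6 libraries compared, a replicate block, glmTreat and leaving out each library. The main fit did not pair the libraries by replicate number. Correlations of same-numbered deviations ran from -0.054 to 0.226, with a median of 0.032 against -0.016 for different numbers. No library duplicated another.

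Coordinates, exon lengths and stem-loops came from GENCODE v44 on GRCh38, and promoters from RefSeq on GRCh38.p14. S phase and G2/M lists were those of Seurat 5.3.0. The 24 genes with the highest mean CPM were named with values, the first 10 in every library. Others were named where they lay at the floor or where 1 library decided a call, or, chosen after their values were seen, to complete a count of a few genes. The members and all lists were chosen with earlier results of these data known.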

Additional observations from a re-analysis of the deposited data

How the results depend on the processing

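With DESeq2, its size factors, library totals or the replicate block, the counts of histone genes called higher and lower stayed within 1.5 times those reported, and the counts of genes that fell or rose from PC to RC did so under every alternative. Testing every gene with a summed count of at least 2 put 56 members in the test and called 32 higher and 4 lower in TC, the added falls being H2AC14 and H3C8. A fit to only the 6 libraries compared called 5 higher and 1 lower in RC against CC, with H4C15 the lower and neither H2AC6 nor H3C6 called, and 4 higher in PC against TC. The test against 1.5-fold called 2 higher and 0 lower in RC against CC and 0 in PC against TC.

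Leaving out 1 library at a time gave 22 to 25 higher and 2 lower in TC, 25 to 28 higher and 1 to 2 lower in PC, 5 to 11 higher and 0 to 2 lower in RC, and 0 to 3 higher in PC against TC. Of the calls, 22 of 25 rises in TC, 25 of 27 in PC and 4 of 8 in RC held without any 1 library. The ratio of summed CPM ran from 16.2 to 19.6 in TC, 17.5 to 21.2 in PC and 1.39 to 1.69 in RC, with the highest values without CC replicate 2 and the lowest without CC replicate 3. The replicate block gave 24 higher and 2 lower in TC, 26 and 1 in PC, 6 and 2 in RC, 1 and 0 in PC against TC, and 2 and 24 in RC against PC; H4C15 lost its calls in TC and PC under it. The main fit ignored the replicate numbers, although 10 of 12 libraries lay closest to their own number. Whether a number marks a shared culture or day is not given.

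Of 120 fold changes of named genes, 11 changed sign under some alternative, and none of these was called as reported (lowest adjusted p = 0.43). In RC against CC, H2BC15 was 0.0057 with library totals and 0.0011 with DESeq2, and in PC against TC the replicate block gave -0.031 for H4C15 and -0.16 for H4C9. Without 1 library, in RC against CC, H3C10 ran from -0.39 to 0.64, H2BC15 from -0.19 to 0.28 and H4C9 from -0.77 to 0.66. In PC against TC, H2AC6 ran from -0.097 to 0.082, H2BC4 from -0.014 to 0.058, H4C8 from -0.11 to 0.062, H3C10 from -0.12 to 0.11, H3C4 from -0.15 to 0.036, H2AC8 from -0.041 to 0.28, H4C15 from -1.11 to 1.56 and H4C9 from -0.41 to 0.29. Why these moved was not tested. Depth limits the 33 untested genes and the CC levels of the low ones, which rest on a few reads per library.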
